A study of Mus musculus with 8 samples.

Results

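The 45 genes described here encode core and regulatory proteins of the mouse spliceosome. They are the entries of the deposited total RNA table whose symbols begin with Snrp, Lsm and a digit, Sf3a or Sf3b and a digit, or Srsf and a digit, out of 24420 entries. Pseudogene entries marked -ps were to be dropped, and 0 entries needed dropping. Of the 45 genes, 25 are also among the 5804 entries of the deposited polysomal table. By role they form the Sm ring genes (8, of which 3 are in the polysomal table), the U1- and U2-specific Snrp genes (4, all in the polysomal table), the Lsm genes (13 and 5), the SF3a and SF3b genes (9 and 4) and the SR protein genes (11 and 9).

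The study sequenced RNA from the brain of mouse embryos at E11.5, taken from neural tube according to the protocol. It holds 4 groups of 2 libraries each, namely total RNA of Lin28a-/-;b-/- embryos (called dKO), polysomal RNA of dKO embryos, and total and polysomal RNA of wildtype embryos (WT). Both Lin28 genes are lost together in the dKO group, and the labels name no other allele, no treatment and no single knockout. Lin28a and Lin28b encode RNA-binding proteins of embryonic cells that block maturation of let-7 microRNAs and bind many mRNAs. Nothing in the labels tells whether the 2 libraries of a group came from separate embryos, so the p-values below measure the spread between libraries, which may be technical.

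The spliceosome removes introns from pre-mRNA. Its small nuclear ribonucleoproteins (snRNPs) are built on a ring of Sm proteins around U1, U2, U4 or U5 RNA, while U6 RNA carries a ring of the related Lsm2 to Lsm8 proteins. The SF3a and SF3b complexes sit on the U2 snRNP and hold it at the branch site of the intron. SR proteins bind exons through their RNA recognition motifs and recruit the splicing machinery through domains rich in arginine and serine, and several of them also act in mRNA export and translation. Neural progenitors of the early embryo divide quickly and depend on steady splicing.

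Total RNA libraries held summed counts of 15768767 and 15612883 in dKO and 15650360 and 15060560 in WT. The listed genes of the polysomal table summed to 3740980 and 5164982 in dKO libraries, against 14874143 and 15414712 in WT libraries. Counts were scaled to CPM, the count relative to the TMM-scaled total of the library, within each table, so a CPM in total RNA and a CPM in polysomal RNA are not on 1 scale. The 2 dKO polysomal libraries differed from each other more than other replicate pairs did, with a chi-square per degree of freedom of 24.8 over genes, against 2.88 to 3.19 in the other 3 groups. Lin28a averaged 7.14 ± 0.83 CPM in dKO total RNA and 72.8 ± 0.79 CPM in WT total RNA (SD, n = 2 each). Lin28b averaged 51.6 ± 4.98 CPM in dKO and 125 ± 4.05 CPM in WT, so reads of the gene remained in the libraries labelled dKO. Summed over 10 neural tube markers, total RNA held 5810 to 5846 CPM in dKO and 6213 to 6254 CPM in WT.

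In total RNA the most abundant of the 45 genes per length of transcript was Srsf2, at 228 CPM per kilobase in dKO and 334 in WT. Srsf1 followed at 193 CPM per kilobase in dKO and 242 in WT, and Snrpb came next in WT, at 154 in dKO and 217 in WT. This order rests on the annotated transcript used for each gene, of 1899 bases for Srsf2 and 5362 for Srsf1. Without division by length Srsf1 was the higher, with a mean of 1298.5 CPM in WT against 634.58 for Srsf2. Snrpe, whose level hardly moved, stood at 184 CPM per kilobase in dKO and 183 in WT, so it passed Snrpb in the order of the dKO libraries. At the low end were Srsf12, Lsm5, Snrpn and Lsm7. Lsm7, a member of the U6 ring, had only 0 and 2 counts in the dKO libraries and 0 and 4 counts in the WT libraries, and it was the 1 gene of the 45 left out of the test for low counts. Levels of Snrpn, a brain-expressed relative of Snrpb from an imprinted locus, were 2.16 and 1.93 CPM in dKO and 1.34 and 1.85 CPM in WT. Its exons overlap those of Snurf on the same strand, and the sources used here do not say how such reads were counted. Together the 45 genes took 0.583% and 0.587% of counts in dKO total RNA, against 0.692% and 0.696% in WT total RNA, and the 2 genotypes did not overlap.

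**Figure D1:**
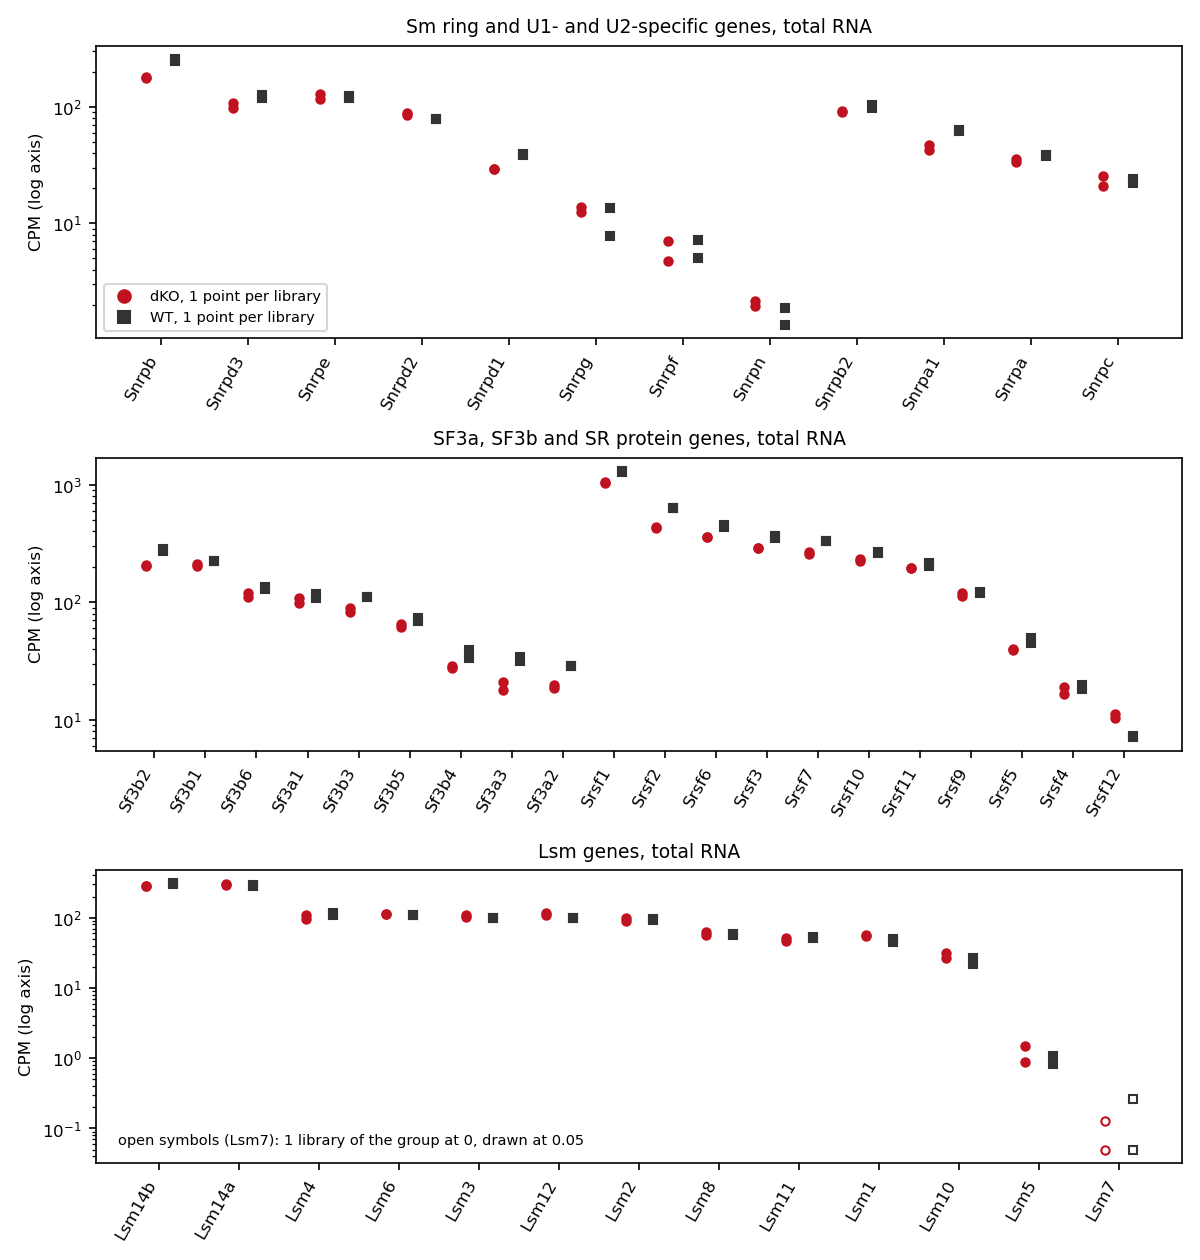
Levels of the 45 spliceosome genes in the 4 total RNA libraries, in CPM on a log axis, with dKO (red circles, left) and WT (black squares, right) and 1 point for each library; the 2 libraries of a group lie close together for most genes, while Snrpg, Snrpf, Snrpn, Lsm5 and Lsm7 are low and scatter more.

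Loss of both Lin28 genes went with lower RNA of many of these genes and with higher RNA of few. Of the 44 genes tested in total RNA, 19 (43.2%) were lower in dKO than in WT and 2 (4.55%) were higher at an adjusted p under 0.05, by edgeR's quasi-likelihood test adjusted with the Benjamini-Hochberg method over all 14594 genes tested. Over all genes tested, 16.0% were lower and 14.7% were higher, 30.7% in all. The median log2 fold change of the 44 genes was -0.12, against 0.00 for all genes tested. The fall was not even across roles: 7 of 9 SF3 genes and 7 of 11 SR genes were lower, against 3 of 8 Sm ring genes, 1 of 4 U1- and U2-specific genes and 1 of 12 Lsm genes tested. In 23 of the 44 genes both dKO libraries lay below both WT libraries, and in 7 both lay above, where 31.2% and 31.0% of all genes did so. When each library was left out in turn, 14 of the 19 lower genes passed in every such fit, and Lsm14b, Sf3b1, Sf3b4, Sf3b6 and Srsf5 did not.

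**Figure D2:**
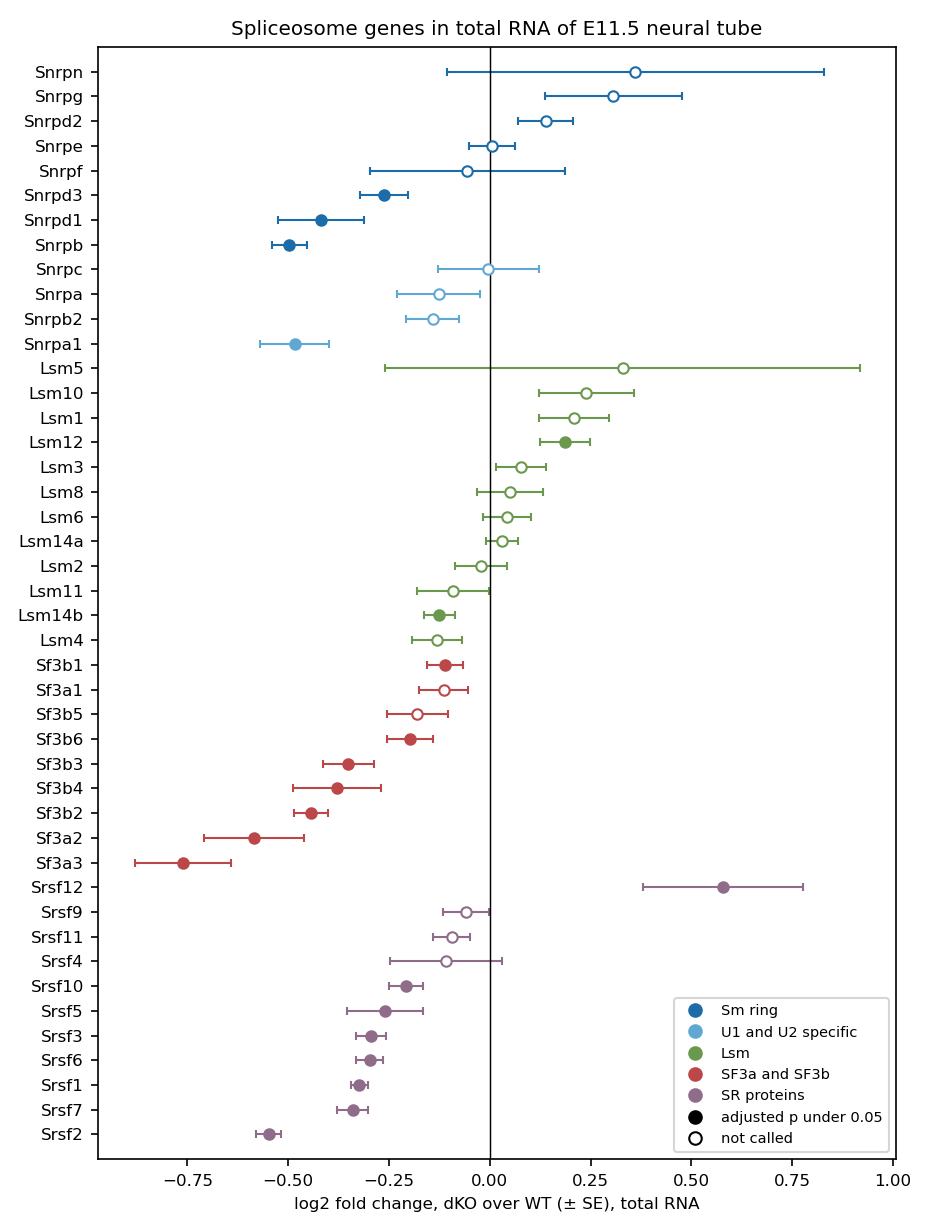
Log2 fold change of dKO over WT in total RNA for the 44 genes tested, by role, with bars of 1 SE and filled symbols for genes at an adjusted p under 0.05; all 9 SF3 genes lie left of 0, whereas Lsm genes lie on both sides of it.

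Among the Sm ring genes, whose products close around the snRNA, 3 were lower and the other 5 did not pass the test by edgeR, DESeq2 or limma-voom, with 1 of them, Snrpd2, at an unadjusted p under 0.05. Snrpb, the gene of SmB, had 178 and 180 CPM in dKO libraries, against 246 and 259 CPM in WT libraries. Both dKO values lay far below both WT values, and the log2 fold change was -0.50 ± 0.04 (SE, adjusted p = 2.36e-27, edgeR). Snrpb lies on chromosome 2 from 130171414 to 130179403 on the minus strand (GRCm38, GENCODE M21). Snrpd1 had 29.5 and 29.3 CPM in dKO and 38.9 and 39.8 CPM in WT, a log2 fold change of -0.42 ± 0.11 (adjusted p = 0.000518, edgeR). Snrpd3 had 98.5 and 107 CPM in dKO and 126 and 120 CPM in WT, a log2 fold change of -0.26 ± 0.06 (adjusted p = 9.74e-05, edgeR). SmD1 and SmD3, which these genes encode, sit with SmB in the same ring, and for the other ring genes no difference passed the test. Snrpd2 had 87.9 and 85.4 CPM in dKO and 79.2 and 78.2 CPM in WT, and Snrpe had 117 and 129 CPM in dKO and 125 and 120 CPM in WT. Snrpf and Snrpg were low, at 7.0 and 4.77 CPM for Snrpf in dKO and 7.20 and 5.03 CPM in WT. Snrpg had 12.6 and 13.7 CPM in dKO and 13.4 and 7.81 CPM in WT, with the genotypes overlapping. Transcripts of other genes match Snrpd1, Snrpd2, Snrpe, Snrpf, Snrpg and Snrpn at 95% identity or more over at least 200 bases, so reads of these genes may have been shared with or lost to copies, while Snrpb and Snrpd3 have no such copy. Snrpd3 overlaps Gucd1 on the opposite strand; the libraries were strand-specific per the protocol, but the sources used here do not give the strand setting of the counting.

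The U1- and U2-specific genes encode the proteins that mark 1 snRNP: Snrpa and Snrpc those of U1, and Snrpa1 and Snrpb2 those of U2. Snrpa1 had 42.9 and 47.2 CPM in dKO and 63.8 and 62.2 CPM in WT, the lowest dKO levels relative to WT of this group, at a log2 fold change of -0.48 ± 0.09 (adjusted p = 2.33e-07, edgeR). Its partner Snrpb2, which binds the same stem-loop of U2 RNA, had 92.8 and 90.3 CPM in dKO and 97.5 and 104 CPM in WT, and did not pass the test (log2 fold change -0.14, adjusted p = 0.081, edgeR). Both U1 genes also missed it, with log2 fold changes of -0.13 for Snrpa and 0.00 for Snrpc. Snrpa has 2 near-identical copies and Snrpc has 3, with the same limit on their reads.

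The SF3a and SF3b genes stood lowest as a group. All 9 had log2 fold changes below 0, from -0.76 to -0.11 with a median of -0.35, and 7 passed the test. Sf3a3 encodes the subunit that ties SF3a to the U2 snRNP. It had 20.8 and 17.9 CPM in dKO libraries, against 31.7 and 33.9 CPM in WT libraries, and was 1.69-fold lower in dKO (log2 fold change -0.76 ± 0.12, adjusted p = 4.5e-09, edgeR). Sf3a2 had 19.7 and 18.4 CPM in dKO and 28.4 and 28.8 CPM in WT, a log2 fold change of -0.59 ± 0.12 (adjusted p = 2.47e-05, edgeR). So SF3a had the largest falls in 2 of its 3 subunits, and the remaining subunit, Sf3a1, had 99.2 and 109 CPM in dKO and 117 and 108 CPM in WT and missed the test (adjusted p = 0.152, edgeR). Within SF3b, Sf3b2 had 203 and 209 CPM in dKO and 275 and 285 CPM in WT (log2 fold change -0.44 ± 0.04, adjusted p = 3.81e-24, edgeR). Sf3b3, a large scaffold subunit, had log2 fold change -0.35 ± 0.06, and Sf3b4, which contacts RNA upstream of the branch site, had -0.38 ± 0.11. Sf3b6, the small subunit found next to the branch-site adenosine, had 111 and 119 CPM in dKO and 129 and 134 CPM in WT (log2 fold change -0.20 ± 0.06, adjusted p = 0.00294, edgeR). Sf3b1, the large subunit that clamps the branch helix, fell least of those called, with 202 and 213 CPM in dKO and 224 and 223 CPM in WT (log2 fold change -0.11 ± 0.04, adjusted p = 0.0408, edgeR). Leaving out 1 library raised its adjusted p to as much as 0.387. Sf3b4, which has a near-identical copy elsewhere, also lost the call without the second WT library (adjusted p = 0.135). Sf3a2, Sf3b2, Sf3b3 and Sf3b4 each overlap another gene on the opposite strand.

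Promoters of 38 of the 45 genes were in the RefSeq table, as 300 bases from 250 before to 50 after the start. The letters CCGGAAG, on either strand, were searched as a form of the ETS factor motif, a common element of housekeeping promoters. They occurred in 15 of the 38 promoters (39.5%), against 16.8% of the 10934 promoters of all genes tested in total RNA. By role they occurred in 6 of 7 promoters of SF3 genes, 2 of 4 of U1- and U2-specific genes, 4 of 11 of SR genes, 2 of 6 of Sm ring genes and 1 of 10 of Lsm genes. The share was 43.8% of 16 promoters of genes lower in dKO and 36.4% of 22 promoters of the other genes, so the match was about as frequent where RNA was not lower. A match is a description of letters and not evidence of a bound factor. The promoters of Sf3a3, Sf3a2, Sf3b2 and Sf3b6 are shown as examples. These genes were lower, and each of the 4 holds the match, at different distances from the start. Sf3b3, also lower, and Sf3a1, not called, hold the match too and are not shown. The sequences run 5′ to 3′ on the strand of the gene, from RefSeq on GRCm38.p6, and capitals mark CCGGAAG or its reverse complement. Sf3a3 is chr4:124714611-124714910 on the plus strand, Sf3a2 is chr10:80798485-80798784 on the plus strand, Sf3b2 is chr19:5295408-5295707 on the minus strand, and Sf3b6 is chr12:4817358-4817657 on the plus strand.
Sf3a3: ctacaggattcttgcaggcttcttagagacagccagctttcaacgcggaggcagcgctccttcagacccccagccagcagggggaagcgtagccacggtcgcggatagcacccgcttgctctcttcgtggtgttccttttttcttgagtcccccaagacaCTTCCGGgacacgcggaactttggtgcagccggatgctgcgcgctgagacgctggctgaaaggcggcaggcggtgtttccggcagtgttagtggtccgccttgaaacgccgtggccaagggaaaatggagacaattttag
Sf3a2: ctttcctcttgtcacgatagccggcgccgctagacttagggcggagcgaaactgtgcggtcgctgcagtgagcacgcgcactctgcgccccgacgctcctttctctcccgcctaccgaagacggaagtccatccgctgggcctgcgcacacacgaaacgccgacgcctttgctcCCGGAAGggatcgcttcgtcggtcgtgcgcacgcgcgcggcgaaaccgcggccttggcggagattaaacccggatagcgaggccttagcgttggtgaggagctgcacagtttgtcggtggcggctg
Sf3b2: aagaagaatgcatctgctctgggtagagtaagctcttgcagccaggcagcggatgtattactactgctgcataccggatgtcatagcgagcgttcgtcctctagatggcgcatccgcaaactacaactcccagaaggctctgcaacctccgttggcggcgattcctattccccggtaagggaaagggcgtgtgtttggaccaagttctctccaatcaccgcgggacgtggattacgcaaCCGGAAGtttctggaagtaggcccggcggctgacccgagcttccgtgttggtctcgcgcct
Sf3b6: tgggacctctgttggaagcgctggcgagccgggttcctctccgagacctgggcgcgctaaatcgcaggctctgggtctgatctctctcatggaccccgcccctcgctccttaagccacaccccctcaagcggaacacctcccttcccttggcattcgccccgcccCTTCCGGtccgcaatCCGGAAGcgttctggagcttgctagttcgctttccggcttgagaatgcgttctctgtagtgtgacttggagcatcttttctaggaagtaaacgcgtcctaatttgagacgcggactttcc
Sf3b6 holds the match on both strands, close to each other. Of other motifs searched on both strands, CCAAT was in 39.5% of the 38 promoters and 38.5% of all, CACGTG in 2.63% and 9.90%, AAGATGGC in 5.26% and 4.38%, and TATAAA in 10.5% and 6.81%.

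The SR protein genes, which include the most abundant of the 45 genes, were lower in 7 of 11 cases and higher in 1. Srsf2, the gene of SC35, had 437 and 430 CPM in dKO libraries, against 632 and 637 CPM in WT libraries. The 2 libraries of each genotype nearly coincided, and Srsf2 was 1.46-fold lower in dKO (log2 fold change -0.55 ± 0.03, adjusted p = 4.36e-73, edgeR). It lies on chromosome 11 from 116849901 to 116853094 on the minus strand, where Mettl23 and Mfsd11 overlap it on the opposite strand. Srsf7, an adaptor of mRNA export with a zinc knuckle, had 258 and 269 CPM in dKO and 333 and 335 CPM in WT (log2 fold change -0.34 ± 0.04, adjusted p = 2.98e-17, edgeR). Srsf1, the founding SR protein, had 1031 and 1044 CPM in dKO and 1304 and 1293 CPM in WT (log2 fold change -0.32 ± 0.02, adjusted p = 3.52e-52, edgeR). The log2 fold changes of Srsf6 (-0.30), Srsf3 (-0.29), Srsf5 (-0.26) and Srsf10 (-0.21) fell in a narrow band below it. Srsf5 lost the call when either dKO library or the second WT library was left out, with adjusted p up to 0.284, and Srsf3, Srsf5 and Srsf10 have near-identical copies. Srsf4, Srsf9 and Srsf11 missed the test, at log2 fold changes of -0.11, -0.06 and -0.09. Srsf12, a low-level member that acts as a splicing repressor, went the other way, with 11.1 and 10.2 CPM in dKO and 7.20 and 7.08 CPM in WT (log2 fold change 0.58 ± 0.20, adjusted p = 0.0153, edgeR). DESeq2 did not call Srsf12 (adjusted p = 0.0778), and neither did edgeR without the first dKO library (adjusted p = 0.133) or the second WT library (adjusted p = 0.0556).

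The Lsm genes moved least. None of the 6 tested genes of the U6 ring, Lsm2 to Lsm6 and Lsm8, passed the test in total RNA by edgeR, DESeq2 or limma-voom, with Lsm4 alone at an unadjusted p under 0.05. Lsm4 was called lower by edgeR without the first dKO library (log2 fold change -0.22, adjusted p = 0.0229) and without the first WT library (-0.19, adjusted p = 0.0434). The log2 fold changes of the 6 genes ran from -0.13 for Lsm4 to 0.33 for the barely detected Lsm5. Lsm12, an Lsm protein outside the rings, had 108 and 117 CPM in dKO and 99.7 and 98.4 CPM in WT (log2 fold change 0.19 ± 0.06, adjusted p = 0.0106, edgeR). DESeq2 did not call it (adjusted p = 0.0589), nor did edgeR without the second dKO library (adjusted p = 0.273) or the second WT library (adjusted p = 0.0682). Lsm14b, related to a P-body component, had 281 and 282 CPM in dKO and 307 and 306 CPM in WT (log2 fold change -0.13 ± 0.04, adjusted p = 0.0057, edgeR); without the first dKO library its adjusted p was 0.0517. Lsm1, which replaces Lsm8 in the cytoplasmic ring that promotes decapping, had 55.9 and 54.6 CPM in dKO and 50.1 and 45.5 CPM in WT, just short of the threshold (adjusted p = 0.0544, edgeR). It was called higher with limma-voom (adjusted p = 0.0495), with upper-quartile scaling (0.039) and with a minimum mean of 5 CPM (0.0397). Lsm10 and Lsm11 are parts of the U7 snRNP, which processes histone mRNA, and neither passed. Of the Lsm genes, Lsm5 has 2 near-identical copies, Lsm6 has 3 and Lsm12 has 1. Reads of these genes may have been shared with or lost to copies.

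Because Lin28 proteins block let-7 maturation, the 3′ UTRs were searched for the match to the let-7 seed, CTACCTC. It occurred in 1 of the 45 genes (2.22%), against 10.5% of 13254 genes tested, and the median 3′ UTR of the 45 genes was shorter, at 634 bases against 1219. The 1 gene was Lsm11, on chromosome 11, whose site is followed by an A. The microRNAs below, from RefSeq on GRCm38.p6, have the seed (bases 2 to 8) in capitals, and in the Lsm11 site, from GENCODE M21, capitals mark the match and the following A. They are shown because this is the single place where the letters of the let-7 seed occur in a 3′ UTR of the set.
mmu-let-7a-5p: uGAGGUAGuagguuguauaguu
mmu-let-7b-5p: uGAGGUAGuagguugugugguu
Lsm11 site: ccatcagacacCTACCTCAccag
Lsm11 had 46.2 and 51.2 CPM in dKO and 52.8 and 51.0 CPM in WT and did not pass the test (log2 fold change -0.09, adjusted p = 0.474, edgeR). None of the 19 lower genes holds the letters in the 3′ UTR used here. GGAGA, a sequence known to be bound by LIN28 in human cells, occurred at a median of 1.60 per kilobase of transcript in the 45 genes, against 1.94 in all genes tested.

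Splicing genes outside the rule included many that were lower. Of 149 other genes of the splicing pathway tested in total RNA, 74 (49.7%) were lower and 10 (6.71%) higher, where 16.0% of all genes were lower and 14.7% higher, with a median log2 fold change of -0.20. The lists below were not tested against each other or against the 45 genes. Other snRNP proteins were lower in 10 of 24 cases, and proteins of branch site and 3′ splice site recognition in 7 of 13. U2af2, which binds the polypyrimidine tract next to the SF3 complexes, had 74.1 and 73.3 CPM in dKO and 111 and 105 CPM in WT (log2 fold change -0.55 ± 0.07, adjusted p = 5.03e-15, edgeR). Genes of activation and catalysis were lower in 14 of 24 cases, SR-related genes in 9 of 18, hnRNP genes in 17 of 23 with 1 higher, and exon junction complex genes in 4 of 5. Among the genes of Sm assembly and snRNP maturation, 8 of 15 were lower and 1 higher. Prmt5, which methylates Sm proteins before assembly, had log2 fold change -0.52 ± 0.07, and Smn1, at the centre of the assembly complex, had -0.50 ± 0.09. Of the kinases of SR proteins 1 of 9 (11.1%) was lower, a share near that of all genes. Neural splicing regulators were the 1 list with more genes higher than lower in total RNA, at 8 and 4 of 18. The higher genes included Rbfox3 (log2 fold change 0.58 ± 0.12), a marker of maturing neurons, and Mbnl1 (0.36 ± 0.07). Among the lower was Khdrbs1 (-0.40 ± 0.05).

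Cell-type markers moved beside these values, and their counts stand against the 16.0% of all genes that were lower and the 14.7% that were higher. Of 8 neural progenitor markers, 3 were lower and 1 higher in dKO total RNA, with summed levels of 3733 to 3762 CPM in dKO and 4090 to 4119 CPM in WT. Of 10 neuron markers, 4 were lower and 3 higher, with sums of 4155 to 4169 CPM in dKO and 4408 to 4426 CPM in WT. Of 7 erythroid markers tested, 6 were lower, with sums of 2692 to 2696 CPM in dKO and 4407 to 4474 CPM in WT, while Hba-a1 and Hba-a2 were at 0 in every library. Of 6 mesenchyme markers 3 were lower, with sums of 345 to 349 CPM in dKO and 360 to 387 CPM in WT. Of 6 macrophage markers 1 was lower and 1 higher, with sums of 35.6 to 45.6 CPM in dKO and 37.4 to 42.8 CPM in WT. Endothelial markers summed to 145 to 152 CPM in dKO and 144 to 146 CPM in WT. Their part in the results was not tested. In bulk tissue, fewer cells of a type and less RNA per cell cannot be told apart.

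In polysomal RNA the 25 listed genes differed far more between genotypes than in total RNA, and not always in the same direction. By edgeR, 20 were lower and 5 higher in dKO, where 52.5% of the 5777 genes tested were lower and 47.2% higher, 99.7% in all. The deposited polysomal table holds almost no gene with an equal level in both genotypes: of the genes that averaged 100 counts or more, none had a raw log2 ratio between -2.04 and -1.71, while 2927 lay below and 2514 above. That all 25 passed the test therefore says nothing particular about them. The other 20 genes of the 45, among them Snrpb, Sf3a2, Sf3a3 and Srsf12, are not in that table, and their polysomal levels were not analysed here. The median log2 fold change of the 25 genes was -0.75, against -0.35 for all genes tested. As a share of listed counts the 25 genes took 0.520% and 0.573% in dKO, against 0.921% and 0.916% in WT.

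Every Sm ring gene and every U1- and U2-specific gene in the table was lower in dKO polysomal RNA. Snrpg had 4.71 and 4.53 CPM in dKO polysomal libraries, against 16.5 and 17.5 CPM in WT polysomal libraries, and was 3.69-fold lower in dKO (log2 fold change -1.88 ± 0.26, adjusted p = 0.000847, edgeR). The dKO values of Snrpg rest on 16 and 23 counts, and it has 2 near-identical copies. Snrpd3 had 91.5 and 93.7 CPM in dKO and 265 and 268 CPM in WT (log2 fold change -1.52 ± 0.08, adjusted p = 8.6e-05, edgeR). Snrpd1 had 33.5 and 32.9 CPM in dKO and 72.1 and 75.0 CPM in WT (log2 fold change -1.15 ± 0.13, adjusted p = 0.000407, edgeR). For these 3 genes the libraries of a genotype lay close together, in contrast to 2 genes of the next group. The U1 gene Snrpc had 12.4 and 18.1 CPM in dKO and 44.6 and 51.1 CPM in WT (log2 fold change -1.62 ± 0.22, adjusted p = 0.000799, edgeR). Its dKO values rest on 42 and 92 counts, and it has 3 near-identical copies. The U2 gene Snrpb2 had 55.3 and 81.5 CPM in dKO and 159 and 153 CPM in WT (log2 fold change -1.17 ± 0.17, adjusted p = 0.00114, edgeR). Snrpa and Snrpa1 were lower by less, at log2 fold changes of -0.52 ± 0.12 and -0.47 ± 0.10. Both lost the call when either WT polysomal library was left out, and with all libraries kept under 2 other settings. With RLE size factors in place of TMM they had -0.286 and -0.239 (adjusted p = 0.0607 and 0.0599, edgeR). With DESeq2 the adjusted p was 0.202 and 0.194.

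The SF3 genes split. Sf3b6 had 87.9 and 80.5 CPM in dKO polysomal libraries and 268 and 268 CPM in WT polysomal libraries, a log2 fold change of -1.67 ± 0.09 (adjusted p = 8.6e-05, edgeR), and Sf3b1 had 189 and 228 CPM in dKO and 347 and 337 CPM in WT (-0.71 ± 0.10, adjusted p = 0.000919, edgeR). Sf3b5 had 230 and 224 CPM in dKO and 136 and 130 CPM in WT, a log2 fold change of 0.77 ± 0.08 (adjusted p = 0.000331, edgeR). Sf3b2 had 517 and 456 CPM in dKO and 363 and 362 CPM in WT, a log2 fold change of 0.42 ± 0.08 (adjusted p = 0.00244, edgeR). Sf3b2 was thus lower in dKO total RNA and higher in dKO polysomal RNA, the 1 gene of the 25 with calls in opposite directions. The highest log2 fold change of the set belonged to Lsm4, a U6 ring subunit with a tail rich in arginine and glycine. It had 519 and 448 CPM in dKO and 189 and 185 CPM in WT and was 2.58-fold higher in dKO (log2 fold change 1.37 ± 0.09, adjusted p = 0.000112, edgeR). The other 4 Lsm genes in the table were lower, with log2 fold changes of -0.77 for Lsm8, -0.75 for Lsm2, -0.51 for Lsm14a and -0.37 for Lsm3.

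The SR genes split as well, 7 lower and 2 higher. Srsf10, which represses splicing when dephosphorylated after heat shock, had 72.9 and 124 CPM in dKO polysomal libraries and 402 and 395 CPM in WT polysomal libraries. The dKO values differed from each other but both lay far below WT, and Srsf10 was 3.99-fold lower in dKO (log2 fold change -1.99 ± 0.21, adjusted p = 0.000365, edgeR); its log2 fold change was -1.69 without the first dKO library and -2.48 without the second. Srsf7 had 184 and 209 CPM in dKO and 565 and 570 CPM in WT (log2 fold change -1.53 ± 0.08, adjusted p = 8.6e-05, edgeR). Srsf3, a small SR protein that shuttles to the cytoplasm, had 172 and 255 CPM in dKO and 583 and 574 CPM in WT (log2 fold change -1.43 ± 0.17, adjusted p = 0.000501, edgeR). Srsf1 had 1083 and 1189 CPM in dKO and 2166 and 2144 CPM in WT, a log2 fold change of -0.92 ± 0.06 (adjusted p = 0.000123, edgeR). Srsf4 had 40.6 and 44.9 CPM in dKO and 23.0 and 22.0 CPM in WT (log2 fold change 0.93 ± 0.16, adjusted p = 0.0019, edgeR), and Srsf9 had 295 and 257 CPM in dKO and 180 and 174 CPM in WT (log2 fold change 0.64 ± 0.09, adjusted p = 0.000954, edgeR). Srsf2, the SR gene with the largest fall in total RNA, was nearest to 0 here, with 954 and 867 CPM in dKO and 1033 and 1049 CPM in WT (log2 fold change -0.20 ± 0.06, adjusted p = 0.0232, edgeR). With RLE size factors in place of TMM, which move the median of all genes by 0.24, its log2 fold change was 0.05.

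**Figure D3:**
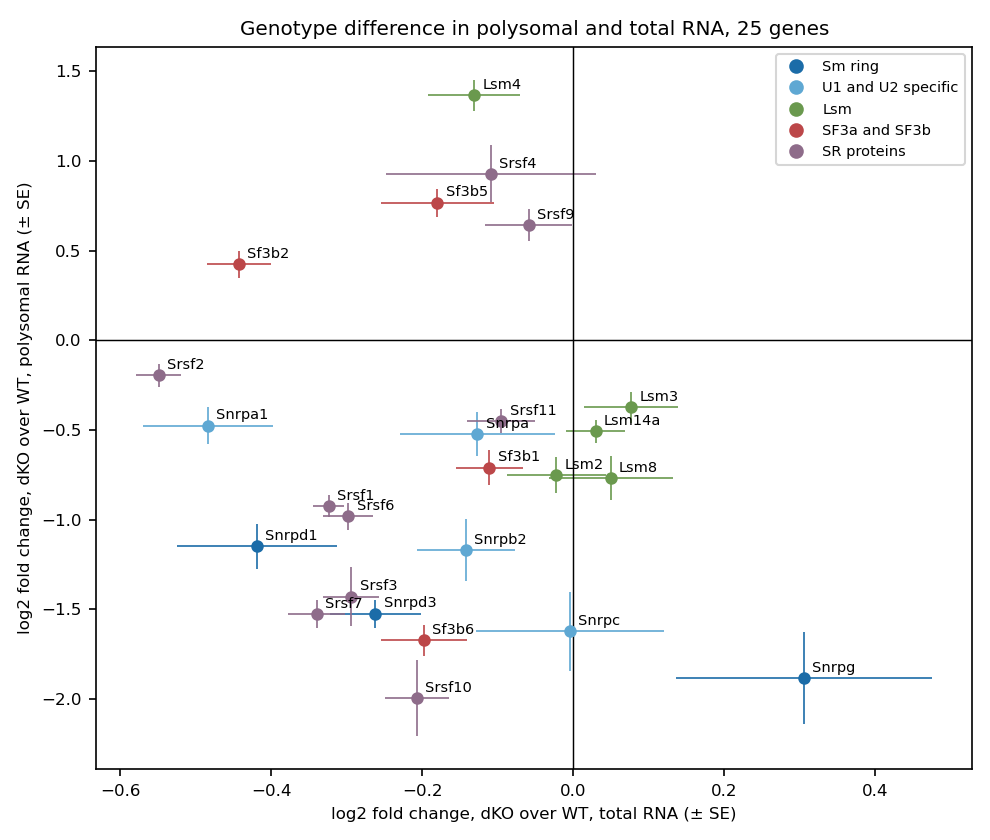
Log2 fold change of dKO over WT in polysomal RNA (vertical axis) against that in total RNA (horizontal axis) for the 25 genes in both tables, with bars of 1 SE and colours for roles; 11 genes called lower in both fractions lie at the lower left, Sf3b2 lies at the upper left, and Snrpg is the farthest right of the genes lower in polysomal RNA.

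Side by side, 11 of the 25 genes were lower in both fractions, against 13.5% of the 5738 genes tested in both tables. Of the 25, 9 were lower in polysomal RNA and not called in total RNA (30.1% of all), 4 were higher in polysomal RNA and not called in total RNA (27.5%), and 1 was lower in total and higher in polysomal RNA (7.32%). Since nearly every gene was called in polysomal RNA, these counts largely restate the calls in total RNA and the polysomal directions. Of the 79 other splicing pathway genes tested in polysomal RNA, 67 were lower and 11 higher, with a median log2 fold change of -0.72. The 13 neural splicing regulators among them were lower in 11 cases and higher in 2. Mbnl1 had a log2 fold change of -0.885 ± 0.128 and Rbfox3 of 0.75 ± 0.15. Cell-type markers moved in the same libraries, where 47.2% of all genes were higher and 52.5% lower. Of 7 neural progenitor markers listed, 5 were higher in dKO and 2 lower, with summed levels of 7132 to 7486 CPM in dKO and 4924 to 4957 CPM in WT and a median log2 fold change of 0.31. Of 8 neuron markers, 2 were higher and 5 lower, with sums of 4015 to 4159 CPM in dKO and 4765 to 4786 CPM in WT. Of 5 mesenchyme markers, 4 were higher and 1 lower, with sums of 1044 to 1261 CPM in dKO and 433 to 440 CPM in WT. All 5 erythroid markers listed were lower, with sums of 4885 to 4919 CPM in dKO and 8669 to 8797 CPM in WT. The 2 endothelial and the 2 macrophage markers listed were split, 1 higher and 1 lower in each pair. The part of these cell types in the polysomal results was not tested.

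The polysomal difference moved with base composition. Transcript GC content and the polysomal log2 fold change had a Spearman's rho of 0.60 over the 25 genes and 0.77 over 5572 genes, a description over genes that share the same libraries. The 5 genes higher in dKO had GC contents of 45.5% to 59.4% (median 56.2%), and the 20 lower genes 39.4% to 57.4% (median 44.8%). In total RNA rho was -0.16 over 44 of the genes and -0.09 over all genes. An offset was then used that removes the trend with GC in each library, taken relative to the WT libraries. It removes any genotype difference that goes with GC content, so values with it describe only what remains beyond that trend. With this offset, 9 of the 25 genes were lower in dKO and 5 higher. Of all genes, 21.3% were lower and 27.1% higher with the same offset, 48.3% in all. The median log2 fold change was then -0.16, against 0.05 for all genes. The 9 were Snrpa, Snrpc, Snrpg, Snrpd3, Lsm2, Srsf10, Sf3b6, Snrpa1 and Srsf7, all of them lower without the offset too. Snrpa and Lsm2, which are richer in GC than most lower genes, moved further from 0, to -1.40 and -1.11. Lsm4 kept a log2 fold change of 0.34 (adjusted p = 0.00479, edgeR with offset), and Sf3b5 had 1.47 (adjusted p = 0.000125, edgeR with offset). The value of Sf3b5 rests on the GC content of 45.5% of its annotated transcript of 3841 bases, whose coding sequence of 258 bases has a GC content of 61.6%. Srsf1, Srsf11 and Sf3b1 turned from lower to higher, at 0.28, 0.31 and 0.34. The same limit holds for other genes with a coding sequence richer in GC than the transcript used for the offset. Among them are Srsf1 (58.7% coding, 40.6% transcript), Srsf2 (68.5% and 49.97%), Snrpc (59.9% and 48.6%) and Srsf3 (50.2% and 40.0%). Others are Srsf6 (53.0% and 42.8%), Srsf7 (49.6% and 41.6%) and Srsf11 (52.8% and 45.0%). Sf3b2, Srsf4 and Srsf9, higher without the offset, were not called with it. In all, 11 of the 25 genes had the same call with and without the offset, the 9 lower genes with Lsm4 and Sf3b5.

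**Figure D4:**
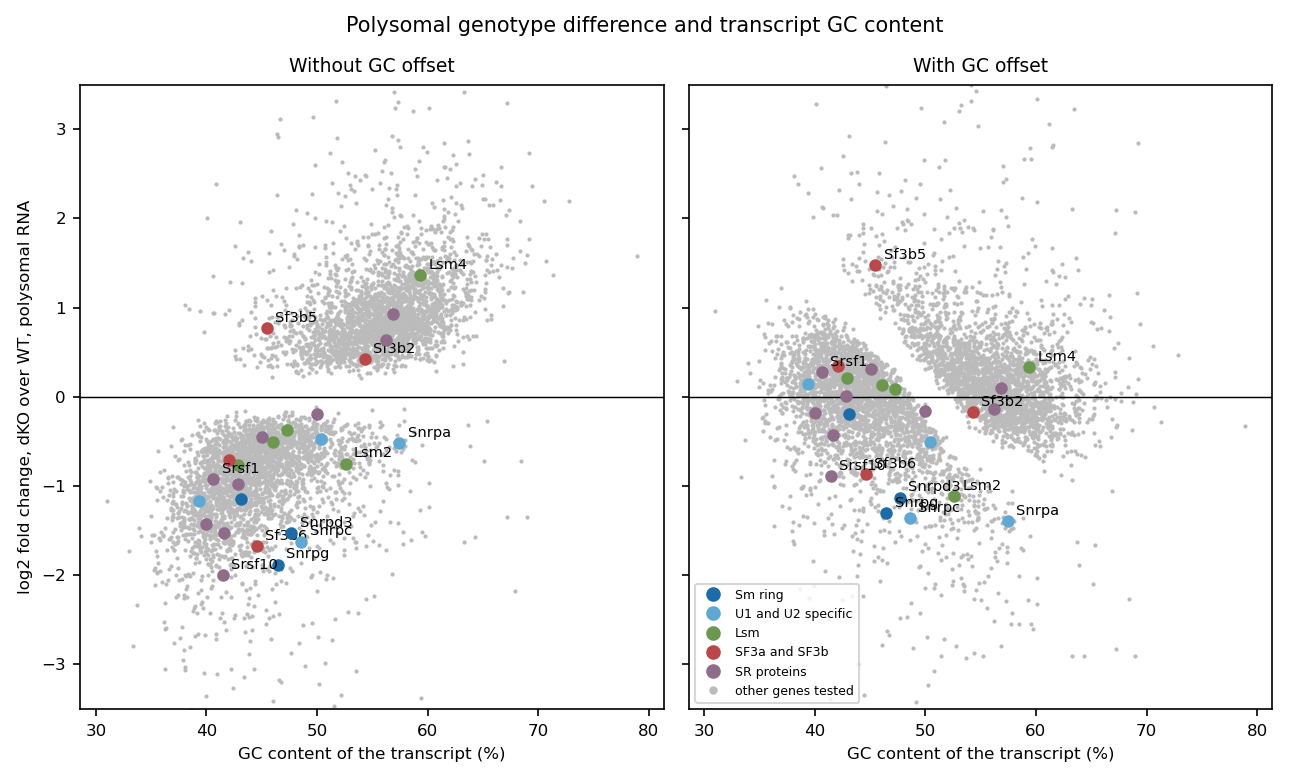
Polysomal log2 fold change of dKO over WT against transcript GC content in percent, without (left) and with (right) the GC offset. The 25 genes (coloured by role) are among 5572 genes with a transcript (grey), of which 103 and 84 lie outside the axis limits of 3.5. On the left the coloured points tend to rise with the cloud, while Snrpa and Lsm2 lie below it and Sf3b5 above it. On the right they spread around 0. There Sf3b5 lies farther above 0 than on the left and Snrpa farther below, and Snrpc and Snrpg stay low.

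Polysomal RNA was set against total RNA within each genotype in 1 fit over the genes of both tables, scaled together. In dKO, 17 of the 25 genes were lower and 6 higher in polysomal than in total RNA, where 46.9% of 5779 genes tested were lower and 43.1% higher, 90.0% in all. Lsm4 had the highest log2 ratio of polysomal to total RNA in dKO, 1.68 ± 0.09, and Snrpg the lowest, -2.05 ± 0.32. In WT, 4 of the 25 genes were higher and 1 lower, where 3.46% of genes were higher and 8.48% lower, 11.9% in all. The 4 were Snrpd3 (log2 ratio 0.54 ± 0.07), Sf3b6 (0.45 ± 0.07), Snrpd1 (0.33 ± 0.09) and Sf3b5 (0.32 ± 0.07), and the 1 lower gene was Lsm14a (-0.21 ± 0.05). These WT counts were unstable: with 1 library of the 8 left out, 2 to 11 genes were higher and 0 to 3 lower, and the 11 came from leaving out either dKO polysomal library. The cause was not tested. The WT medians by role lay between 0.00 for Lsm genes and 0.33 for Sm ring genes, beside a median of 0.00 for all genes.

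The genotype by fraction interaction tests whether the genotype difference itself differs between polysomal and total RNA. It was called for 24 of the 25 genes by edgeR, 18 lower and 6 higher, where 45.8% of genes were lower and 43.7% higher, 89.5% in all. Almost none of the genes tested had equal polysomal levels in both genotypes. That 24 of the 25 were called therefore says nothing particular about them. The lowest values were those of Snrpg (log2 difference -2.15 ± 0.40, adjusted p = 0.000601), Srsf10 (-1.74 ± 0.20, adjusted p = 2.9e-05) and Snrpc (-1.57 ± 0.25, adjusted p = 0.000238). The highest were those of Lsm4 (1.53 ± 0.12, adjusted p = 2.45e-06), Srsf4 (1.08 ± 0.20, adjusted p = 0.000574) and Sf3b5 (0.98 ± 0.10, adjusted p = 1.33e-05). Snrpa1 was the 1 gene not called, at 0.05 ± 0.13, with nearly the same genotype difference in both fractions. With the GC offset, 7 genes were lower and 8 higher, where 19.3% of all genes were lower and 23.5% higher, 42.8% in all. Snrpg, Snrpc, Snrpa, Lsm2, Snrpd3, Sf3b6 and Srsf10 were lower with and without it, Lsm4, Sf3b5, Sf3b2 and Srsf2 were higher with and without it, and Srsf1, Srsf6, Srsf11 and Sf3b1 turned from lower to higher.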

How the data were processed

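The authors deposited 2 tables of raw counts per gene, 1 of total and 1 of polysomal RNA, with no normalization, per the file headers and values. Per the submitters' processing notes, HTSeq, TopHat and FastQC were used; mm9, mm10 and GRCm38 are listed as builds without a role. The sources used here give no version, annotation or strand setting, nor how the genes of the polysomal table were picked. Library kits were strand-specific, per the labels' protocols.

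Counts were tested with edgeR 4.0.16 in R 4.3.3 (TMM scaling, filterByExpr, quasi-likelihood test, Benjamini-Hochberg threshold 0.05 over all genes tested), each table on its own, with group means and no covariate. Fraction comparisons and the interaction used the 5801 genes of both tables in 1 fit of 8 libraries. The scripts were tested on simulated data. The biological coefficient of variation was 0.0504 in total and 0.0898 in polysomal RNA. With 2 libraries a group, an exact permutation test of 1 gene could not go below p = 0.333, so tests rest on spread shared across genes.

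Transcript length, GC content and 3′ UTRs came from the longest coding transcript of each gene in GENCODE M21 (GRCm38), matched by symbol for 95.6% of 24418 symbols. Near-identical copies are transcripts of other genes at 95% identity or more over at least 200 bases. The GC offset is a loess curve (span 0.5) on transcript GC content. It was fitted to how far each library lay from the average WT library, within total or polysomal RNA. By construction it removes any genotype difference that goes with GC content. DESeq2 1.42.0, limma 3.58.1, other scalings and filters, a replicate block, and each library left out were alternatives; the GC offset in total RNA was added after seeing the data.

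The genes, roles, pathway lists and marker lists were chosen with earlier results of these data known. Values in every library are given for the Sm ring genes. In each role the rule added the 2 called genes with the highest and the 2 with the lowest log2 fold change in each fraction. Against that rule, only log2 fold changes are given for Srsf10 in total RNA and for Snrpa, Snrpa1, Lsm2, Lsm3 and Lsm8 in polysomal RNA. The other genes with library values have a called interaction or were chosen after their values were seen. Of each other pathway list, up to 3 called genes with the largest change and a mean of at least 5 CPM could be named.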

Additional observations from a re-analysis of the deposited data

Results flagged for a closer look

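In 24 of the 25 spliceosome genes present in both tables the genotype difference in polysomal RNA was itself different from that in total RNA, by the interaction term of the edgeR fit at an adjusted p under 0.05, where 89.5% of all genes tested were. Almost none of the genes tested had equal polysomal levels in both genotypes, so the count of 24 says nothing particular about the 25. Each value below is the log2 genotype difference (dKO over WT) in polysomal RNA minus that in total RNA. Among the 6 with a positive value it was 1.53 for Lsm4, 1.08 for Srsf4, 0.98 for Sf3b5, 0.90 for Sf3b2, 0.73 for Srsf9 and 0.39 for Srsf2.

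Among the Sm ring and U1- and U2-specific genes with a negative value it was -2.15 for Snrpg, -1.57 for Snrpc, -1.22 for Snrpd3, -0.98 for Snrpb2, -0.69 for Snrpd1 and -0.35 for Snrpa. For the Lsm genes it was -0.78 for Lsm8, -0.69 for Lsm2, -0.50 for Lsm14a and -0.41 for Lsm3, and for the SF3 genes -1.44 for Sf3b6 and -0.56 for Sf3b1. For the SR genes it was -1.74 for Srsf10, -1.15 for Srsf7, -1.09 for Srsf3, -0.64 for Srsf6, -0.56 for Srsf1 and -0.32 for Srsf11. These values moved with transcript GC content, with a Spearman's rho of 0.57 over the 25 genes and 0.80 over 5575 genes; the part of GC content in them was not tested beyond the offset, with which 15 of the 25 were called, where 42.8% of all genes were.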

How the results depend on the processing

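Against 19 genes lower in total RNA, 15 to 22 were lower with the other tools, scalings, filters and left-out libraries tried, save the fit of all 8 libraries, which tests 25 of the genes and called 9 lower and 0 higher. The 2 higher genes became 0 with DESeq2 and 1 to 3 with a library left out. Near-zero genes that were not called in total RNA changed sign: with the GC offset Lsm8 had a log2 fold change of -0.001 and Snrpe -0.055. Snrpc had 0.001 with a minimum mean of 5 CPM and 0.009 with upper-quartile scaling. With all libraries kept, Sf3b1 lost its call in total RNA with upper-quartile scaling (adjusted p = 0.0795, edgeR) and with DESeq2 (adjusted p = 0.115). Srsf5 lost its own with DESeq2 (adjusted p = 0.0883). In the fit of all 8 libraries Sf3b1, Srsf10 and Srsf3 were not called (adjusted p = 0.284, 0.273 and 0.0898, edgeR). Calls were also gained, by Snrpb2, Sf3b5 and Srsf11 with the GC offset, by Sf3b5 and Lsm1 with a minimum mean of 5 CPM, by Lsm1 with 2 other settings, and by Lsm4, Lsm10, Snrpg and Srsf11 with a library left out. With a library left out the ranges were: Snrpc -0.154 to 0.131, Snrpe -0.064 to 0.072, Snrpf -0.361 to 0.222, Snrpg -0.032 to 0.748, Lsm2 -0.104 to 0.054, Lsm5 -0.081 to 0.647, Lsm8 -0.028 to 0.121 and Lsm14a -0.001 to 0.056.

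In polysomal RNA 5 genes were higher in every setting, though with the GC offset only 2 of the same 5, and 15 to 20 lower except with the GC offset (9) and with the replicate block and GC offset together (12). Srsf2 turned to 0.045 with RLE size factors and 0.045 with DESeq2, and these scalings moved the median of all genes by 0.24. Lsm3, Snrpa and Snrpa1 lost the polysomal call with both, at -0.135, -0.286 and -0.239 with RLE size factors. Srsf11 lost it with DESeq2 (adjusted p = 0.0813). With the GC offset (and with the block added) the log2 fold changes that changed sign were Lsm14a 0.129 (0.13), Lsm3 0.092 (0.094), Lsm8 0.212 (0.214), Sf3b1 0.343 (0.342), Sf3b2 -0.17 (-0.17), Snrpb2 0.139 (0.124), Srsf1 0.276 (0.276), Srsf11 0.307 (0.308), Srsf6 0.004 (0.003) and Srsf9 -0.135 (-0.134). In the interaction, 7 genes were lower with the GC offset against 18 without. Signs changed for Lsm14a (0.057), Lsm8 (0.139), Sf3b1 (0.449), Snrpa1 (-0.04), Snrpb2 (0.327), Snrpd1 (0.202), Srsf1 (0.616), Srsf11 (0.361), Srsf3 (0.148), Srsf6 (0.285) and Srsf9 (-0.062). Snrpa1, not called, was also -0.053 with the empty band of the table at 0, and -0.021 to 0.111 with a library left out. Snrpa lost its interaction call when any 1 of 6 of the 8 libraries was left out (adjusted p up to 0.111), and Lsm3, Snrpa, Snrpa1 and Srsf2 lost the polysomal call without either WT library (adjusted p up to 0.175). With all libraries kept, Snrpa lost its interaction call with RLE size factors (-0.23, adjusted p = 0.15, edgeR) and DESeq2 (adjusted p = 0.255). It also lost that call with the replicate block (adjusted p = 0.0536, edgeR), and Srsf11 lost its own with DESeq2 (adjusted p = 0.0702). The cause of these changes was not tested.

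In WT, 9 genes were higher and 2 lower in polysomal than in total RNA with limma-voom, and 2 were lower with a minimum mean of 5 CPM, against 4 and 1; with a library left out the counts were 2 to 11 and 0 to 3. Deviations of same-numbered libraries were barely correlated between genotypes, at -0.04 in total and 0.06 in polysomal RNA. Between fractions the correlation was 0.03 in dKO and 0.005 in WT. With 2 libraries a group, these values cannot tell whether libraries of the same number were paired. The replicate block alone left 19 lower in total and 20 lower in polysomal RNA and 17 lower in the interaction. Low counts limit some genes: Lsm7 could not be tested, and Lsm5 and Snrpn have SEs of 0.59 and 0.47. Lsm5 has 2 near-identical copies, Snrpn 1 and Lsm7 0. Why the counts of these genes were low was not tested. In dKO polysomal RNA, Snrpg rests on 16 and 23 counts and Snrpc on 42 and 92.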
